A study of Mus musculus with 32 samples.

Results

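The genes described here are 8 genes of cholesterol synthesis and its control: Hmgcs1, Mvk, Fdft1, Sqle, Cyp51, Dhcr7, Srebf2 and Insig1. They were taken by symbol from a table of 34223 genes, all 8 were found, and all 8 reached a normalised read count of 10 in 8 or more of the 32 embryos, as did 15559 genes of the table. The libraries came from single wild-type mouse embryos, taken 28 h after in vitro fertilization at the late 2-cell stage. Every embryo, controls included, had received an injected H3.3-GFP mRNA, which encodes a histone variant joined to a fluorescent protein, and GFP-positive embryos were kept. In 16 embryos (Val_LNA) the injection also held an antisense oligonucleotide with locked nucleic acid against tRFValCAC, a fragment of a valine tRNA. In the 16 control embryos (Ctrl_LNA) it held a scrambled oligonucleotide of the same chemistry. No uninjected embryos were analysed here. Parents and injection days are not named in the labels, and p-values therefore measure only how much these embryos spread. The counts are scaled to each embryo's library, so a lower one means a lower level relative to the embryo's other genes. The amount of RNA per embryo or per cell cannot be read from them.

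Cells make cholesterol from acetyl-CoA. The first enzymes build mevalonate and phosphorylate it, the following ones join its isoprene units into squalene, and the late ones close the ring to lanosterol and trim lanosterol to cholesterol. Most genes of the pathway are controlled together by SREBP2, the protein of Srebf2. SREBP2 is held in the endoplasmic reticulum by SCAP and the Insig proteins while sterols are plentiful. When sterols run low it is cut free, enters the nucleus and binds sterol regulatory elements, mostly beside sites for NF-Y and Sp1. The 2-cell embryo is the stage at which RNA stored in the egg is replaced by RNA from the embryo's own genome.

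RefSeq promoter windows (build GRCm38.p6, 250 bases before to 50 bases after a start site) were found for 6 of the 8 genes (8 windows, 3 of them for Dhcr7), Sqle and Fdft1 being the other two. The windows of Hmgcs1, Srebf2 and Cyp51 are shown because the first 2 hold the sterol regulatory element letters searched for and the last belongs to the gene that was higher in Val_LNA embryos. Capitals mark matches on either strand to TCACNCCA, CCAAT (the NF-Y box, ATTGG on the other strand), GGGCGG (the Sp1 box, CCGCCC on the other strand) and CACGTG (an E-box), and sequences run 5′ to 3′ in the direction of the gene.
Hmgcs1, chr13:119690101-119690400, plus strand: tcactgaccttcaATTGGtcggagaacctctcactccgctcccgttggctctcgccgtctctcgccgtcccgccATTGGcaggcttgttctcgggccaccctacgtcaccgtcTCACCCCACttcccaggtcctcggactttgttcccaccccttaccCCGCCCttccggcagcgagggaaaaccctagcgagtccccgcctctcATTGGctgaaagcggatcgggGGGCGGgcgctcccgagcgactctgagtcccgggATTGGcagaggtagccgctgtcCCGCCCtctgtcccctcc
Srebf2, chr15:82147019-82147318, plus strand: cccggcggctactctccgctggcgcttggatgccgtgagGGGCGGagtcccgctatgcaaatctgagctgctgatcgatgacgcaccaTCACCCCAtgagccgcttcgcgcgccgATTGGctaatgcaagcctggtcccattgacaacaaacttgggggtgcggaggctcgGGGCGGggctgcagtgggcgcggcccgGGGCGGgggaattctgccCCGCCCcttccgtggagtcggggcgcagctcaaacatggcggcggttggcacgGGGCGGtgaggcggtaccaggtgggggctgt
Cyp51, chr5:4104648-4104947, minus strand: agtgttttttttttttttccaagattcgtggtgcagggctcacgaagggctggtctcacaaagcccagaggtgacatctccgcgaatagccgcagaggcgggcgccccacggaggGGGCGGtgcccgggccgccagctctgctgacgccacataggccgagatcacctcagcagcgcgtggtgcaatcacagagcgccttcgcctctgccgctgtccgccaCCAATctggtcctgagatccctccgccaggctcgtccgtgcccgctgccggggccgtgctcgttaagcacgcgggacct
The full element TCACNCCAC was matched in 1 of the 8 windows of these genes, as TCACCCCAC at base 114 of the Hmgcs1 window, and in 1.24% of the 32851 promoters of the table. The shorter TCACNCCA, added after the sequences were seen and contained in the longer motif, was matched in Hmgcs1 and Srebf2 and in 4.36% of promoters. CCAAT was matched in 6 of the 8 windows against 37.4% of promoters, and GGGCGG in 7 of 8 against 35.7%. CACGTG was matched in 2 of 8 windows, in Dhcr7 and Insig1, against 7.15%. These are matches of letters and say nothing of binding. Other spellings of the sterol regulatory element were not searched for, so a window without a match, such as that of Cyp51, may still hold one.

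The 32 libraries held 2592925 to 6259870 reads. Ctrl_LNA 48 stood apart, with 7276 genes detected against 16687 to 20200 in each of the other 31 embryos, and the fits were repeated without it. In that embryo Cyp51, Mvk and Srebf2 had no reads and Dhcr7 had 1.05 normalised counts, while Hmgcs1 (1404), Sqle (1479) and Fdft1 (1147) were present. Across the tested genes, the median difference in log2 units (log2 fold change, Val_LNA minus Ctrl_LNA) was 0.26 with all embryos and 0.07 without Ctrl_LNA 48. With all embryos, centring each on its median gene moved the median difference to -0.19. The split of calls went from 137 higher and 204 lower genes to 61 and 300. Without Ctrl_LNA 48, centring gave a median of -0.0004, and the split was 186 and 433 against 245 and 409 uncentred.

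Cyp51 was higher in Val_LNA embryos, and Dhcr7, Mvk and Hmgcs1 were lower, with and without 1 control library, Ctrl_LNA 48. With all 32 embryos the 3 lower genes did not pass in limma, and some other settings called 1 or more of them with that library included. In limma with all 32 embryos, 1 of the 8 genes was called higher (Cyp51) and 0 were called lower at an adjusted p under 0.05. Of all tested genes 0.881% were called higher and 1.31% lower, and at an unadjusted p under 0.05 the members counted 1 higher and 4 lower against 8.88% and 5.85% of genes. At that unadjusted threshold the members again counted 1 higher and 4 lower without Ctrl_LNA 48, against 8.28% and 8.46% of genes. Without Ctrl_LNA 48, limma called Cyp51 higher and 3 members lower, Dhcr7, Mvk and Hmgcs1, against 1.57% of genes higher and 2.63% lower. DESeq2 on the reads made the same 4 calls without that embryo, against 1.71% and 2.58% of genes, and with all embryos it called Cyp51 higher and Hmgcs1 lower (1.32% and 2.17% of genes). EdgeR's quasi-likelihood test called 0 members with all embryos (0.186% of genes higher and 1.08% lower). Without Ctrl_LNA 48 edgeR called Cyp51 higher and Hmgcs1 lower (0.546% and 1.61% of genes). The other members, Sqle, Fdft1, Srebf2 and Insig1, were called in none of these 6 fits. The members, and the gene lists used below, were chosen with earlier results of these data known. Their counts beside the shares of all genes are therefore descriptions and no test of a list.

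**Figure D1:**
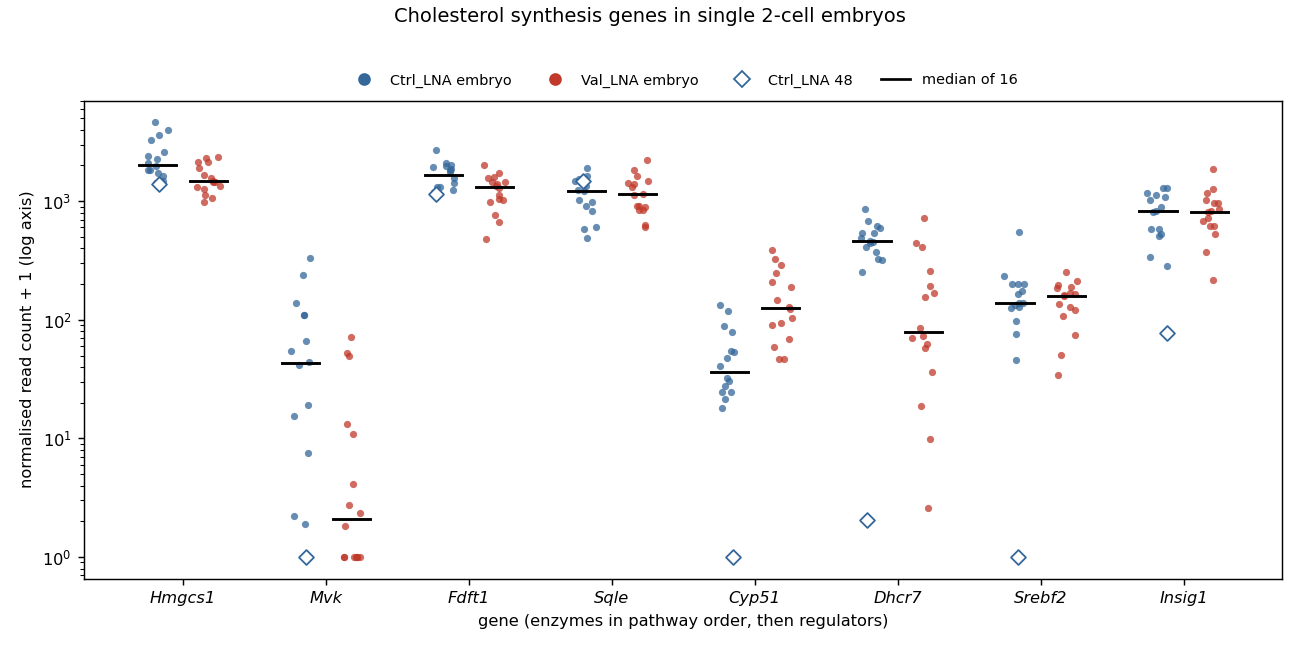
Normalised read count + 1 (log axis) of the 8 genes in each of the 16 Ctrl_LNA and 16 Val_LNA embryos, with a bar at the median of each group and an open diamond for Ctrl_LNA 48. Val_LNA embryos lie higher for Cyp51 and mostly lower for Dhcr7 and Mvk, and the groups overlap for every gene.

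Hmgcs1 (chr13:119690379-119708260, plus strand) encodes the cytosolic HMG-CoA synthase at the entry to the mevalonate pathway. Its normalised counts in Ctrl_LNA embryos ran from 1404 to 4622 with a median of 2025, and in Val_LNA embryos from 980 to 2368 with a median of 1474. The groups overlapped in part: the control median exceeded 12 of 16 Val_LNA embryos, and 6 control embryos lay above every Val_LNA embryo. At the lower end, 6 Val_LNA embryos lay below every control embryo other than Ctrl_LNA 48. The means were 1600 ± 444 in Val_LNA against 2385 ± 984 in Ctrl_LNA (SD, n = 16 each), a ratio of 1.49. The log2 fold change was -0.53 (SE 0.17, limma adjusted p = 0.116), and -0.57 without Ctrl_LNA 48 (SE 0.17, limma adjusted p = 0.0473), where Hmgcs1 counts as called.

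Mvk (chr5:114444269-114460591, plus strand) encodes mevalonate kinase, which adds the first phosphate to mevalonate. It was the sparsest member. Control embryos ran from 0 to 328.56 normalised counts with a median of 41.8, and Val_LNA embryos from 0 to 70.22 with a median of 1.09. No read of Mvk was found in 7 Val_LNA embryos and 2 control embryos, and 5 control embryos exceeded every Val_LNA embryo. At least 10 normalised counts were reached in 4 Val_LNA and 11 Ctrl_LNA embryos. The means were 12.4 ± 22.7 and 72.8 ± 94.5 (SD, n = 16 each). The log2 fold change was -2.66 (SE 0.87, limma adjusted p = 0.113), and -2.96 without Ctrl_LNA 48 (SE 0.85, limma adjusted p = 0.0379).

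Fdft1 (chr14:63145150-63179578, minus strand) encodes squalene synthase, the first enzyme committed to sterols. Control embryos ran from 1079 to 2719 normalised counts with a median of 1657, and Val_LNA embryos from 481 to 2014 with a median of 1316. Most Val_LNA embryos, 14 of 16, lay below the control median, and 6 lay below every control embryo. The log2 fold change of -0.45 (95% interval -0.81 to -0.09) did not pass in limma with all embryos (adjusted p = 0.209) or without Ctrl_LNA 48 (-0.48, adjusted p = 0.114).

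Sqle (chr15:59315077-59331192, plus strand) encodes squalene epoxidase, a rate-limiting step of the later pathway. Its means were 1200 ± 452 normalised counts in Val_LNA against 1163 ± 412 in Ctrl_LNA (SD, n = 16 each). The ranges, 605 to 2232 and 484 to 1908, nearly coincided, and 9 Val_LNA embryos lay below and 7 above the control median. For Sqle the log2 fold change was 0.05 with a 95% interval of -0.36 to 0.47 (limma adjusted p = 0.922) and 0.08 without Ctrl_LNA 48. After centring on the median gene it was -0.40 with Ctrl_LNA 48 included, and it was positive after centring without that embryo.

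Cyp51 (chr5:4081145-4104746, minus strand) encodes lanosterol 14-alpha-demethylase, the cytochrome P450 that takes the first methyl group off lanosterol. Control embryos ran from 0 to 131.87 normalised counts with a median of 35.6, and Val_LNA embryos from 45.68 to 383.85 with a median of 124.7. All 16 Val_LNA embryos lay above the control median and 7 lay above the highest control embryo, and 8 of the 15 control embryos other than Ctrl_LNA 48 lay below every Val_LNA embryo. The means were 159 ± 105 in Val_LNA against 48.8 ± 37.2 in Ctrl_LNA (SD, n = 16 each), a ratio of 3.26, or 3.05 without Ctrl_LNA 48. These rest on 2496 and 922 reads in all.

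The log2 fold change of Cyp51 was 1.91 (SE 0.48, limma adjusted p = 0.021), and 1.57 without Ctrl_LNA 48 (SE 0.35, limma adjusted p = 0.0045). Cyp51 stayed called whichever single embryo was left out, with log2 fold changes from 1.57 to 2.04 and limma adjusted p from 0.0045 to 0.0395. With edgeR and all embryos the value of 1.58 missed the threshold (adjusted p = 0.055), and with DESeq2 it was 1.70 (adjusted p = 0.0013).

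Dhcr7 (chr7:143823145-143848410, plus strand) encodes 7-dehydrocholesterol reductase, the last step of one branch of the pathway. Control embryos other than Ctrl_LNA 48 ran from 251.16 to 851.57 normalised counts with a median of 464.5, and Val_LNA embryos from 1.59 to 713.43 with a median of 78.0. The Val_LNA embryos fell into a broad range: 12 of 16 lay below all of these 15 control embryos, while Val_LNA 5 (713.43), Val_LNA 6 (439.66), Val_LNA 7 (405.94) and Val_LNA 2 (255.55) lay inside the control range. The means were 171 ± 196 in Val_LNA (SD, n = 16) and 489 ± 156 in Ctrl_LNA without embryo 48 (SD, n = 15). The coefficient of variation was 115% in Val_LNA against 31.8% in these controls, the widest gap between groups among the 8 genes, and for Mvk it was 182% and 123%.

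With all embryos the log2 fold change of Dhcr7 was -2.01 (SE 0.69, limma adjusted p = 0.137), with Ctrl_LNA 48 (1.05) below every Val_LNA embryo. Without that embryo it was -2.50 (SE 0.53, limma adjusted p = 0.00283). DESeq2 without Ctrl_LNA 48 gave -1.53 (adjusted p = 0.0186), and edgeR without it gave -1.56 (adjusted p = 0.0802), which is no call.

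Srebf2 (chr15:82147181-82205379, plus strand) encodes SREBP2, the transcription factor of the pathway. Its means were 145 ± 58.9 normalised counts in Val_LNA against 162 ± 120 in Ctrl_LNA (SD, n = 16 each). The ranges were 32.97 to 249.7 and 0 to 548.8, and 1 control embryo, Ctrl_LNA 32, lay above every Val_LNA embryo. Its log2 fold change was 0.26 (95% interval -0.80 to 1.31, limma adjusted p = 0.832) over all 32 embryos and -0.20 (-0.78 to 0.39, limma adjusted p = 0.782) without Ctrl_LNA 48. Differences of either sign within these intervals are compatible with the values of these embryos.

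Insig1 (chr5:28071363-28078662, plus strand) encodes the membrane protein that retains the SCAP and SREBP complex, and is itself a known SREBP target. Val_LNA embryos ran from 216 to 1857 normalised counts with a median of 815, and control embryos from 76.7 to 1291 with a median of 824. The groups overlapped throughout, with 8 Val_LNA embryos on each side of the control median. The difference for Insig1 was a log2 fold change of 0.22 (95% interval -0.41 to 0.86, limma adjusted p = 0.748), and 0.02 (-0.49 to 0.52) without Ctrl_LNA 48.

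Per kilobase of exon, 4 members formed an upper tier and 4 a lower one in both groups. In Val_LNA embryos the normalised counts per kilobase were 348 ± 96.7 for Hmgcs1, 294 ± 96.3 for Fdft1, 273 ± 124 for Insig1 and 216 ± 81.5 for Sqle (SD, n = 16). The SD ranges of neighbours among these 4 overlapped. Below a gap came Cyp51 with 36.01 ± 23.8, Dhcr7 with 29.4 ± 33.8, Srebf2 with 20.2 ± 8.20 and Mvk with 4.65 ± 8.47, again with overlapping SD ranges between neighbours. In the controls without embryo 48 the upper tier had the same order, and the lower one began with Dhcr7 (84.0 ± 26.7) and ended with Cyp51 (11.8 ± 8.17, SD, n = 15), with Mvk (29.0) and Srebf2 (24.1) between. Cyp51 was the first of the lower tier in Val_LNA embryos and the last in control embryos, a description of levels with no test of the order.

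The whole pathway was followed through a list of 21 enzymes, 6 of them members, and all 21 were tested. Limma called 1 higher (Cyp51) and 0 lower with all embryos, against 0.881% and 1.31% of all genes. The median log2 fold change was 0.02 against 0.26 over all tested genes. Without Ctrl_LNA 48 limma called 1 higher and 3 lower, all of them members, against 1.57% and 2.63% of genes. The median was then -0.32 against 0.07 over all genes. So 17 of the 21 enzymes were not called in either direction there, among them Lss, lanosterol synthase, at -0.88 (95% interval -2.14 to 0.38). At an unadjusted p under 0.05, 2 of the 21 were higher and 5 lower with all embryos, against 8.88% and 5.85% of genes. Without Ctrl_LNA 48 the counts were 2 higher and 6 lower, against 8.28% and 8.46%.

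The non-members with the smallest p lay at both ends of the pathway. Mvd, mevalonate diphosphate decarboxylase, had reads in 7 of 16 Val_LNA and 14 of 16 control embryos. Its log2 fold change was -2.31 with all embryos (SE 0.92, limma adjusted p = 0.223) and -2.62 without Ctrl_LNA 48 (SE 0.90, limma adjusted p = 0.0981). Sc5d, the desaturase that makes 7-dehydrocholesterol, the substrate of Dhcr7, had means of 174 ± 141 in Val_LNA against 82.5 ± 75.6 in Ctrl_LNA (SD, n = 16 each). Its log2 fold change was 1.41 (SE 0.54, limma adjusted p = 0.198), and 1.03 without Ctrl_LNA 48 (SE 0.40, limma adjusted p = 0.157).

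A further 10 enzymes were not called by limma either. Before squalene, without Ctrl_LNA 48, the log2 fold change was -0.68 for Acat2 (the thiolase that starts the pathway), 0.41 for Pmvk (phosphomevalonate kinase), -0.02 for Idi1 (isopentenyl diphosphate isomerase) and -0.27 for Fdps (farnesyl diphosphate synthase). After lanosterol it was -0.97 for Tm7sf2 and -0.41 for Lbr, which are both sterol C14 reductases and take the product of Cyp51. It was 0.54 for Msmo1, 0.35 for Nsdhl and 0.09 for Hsd17b7, which remove the C4 methyl groups together. It was -0.32 for Ebp, a sterol isomerase. The limma adjusted p of these 10 lay between 0.219 for Tm7sf2 and 0.984 for Idi1.

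**Figure D2:**
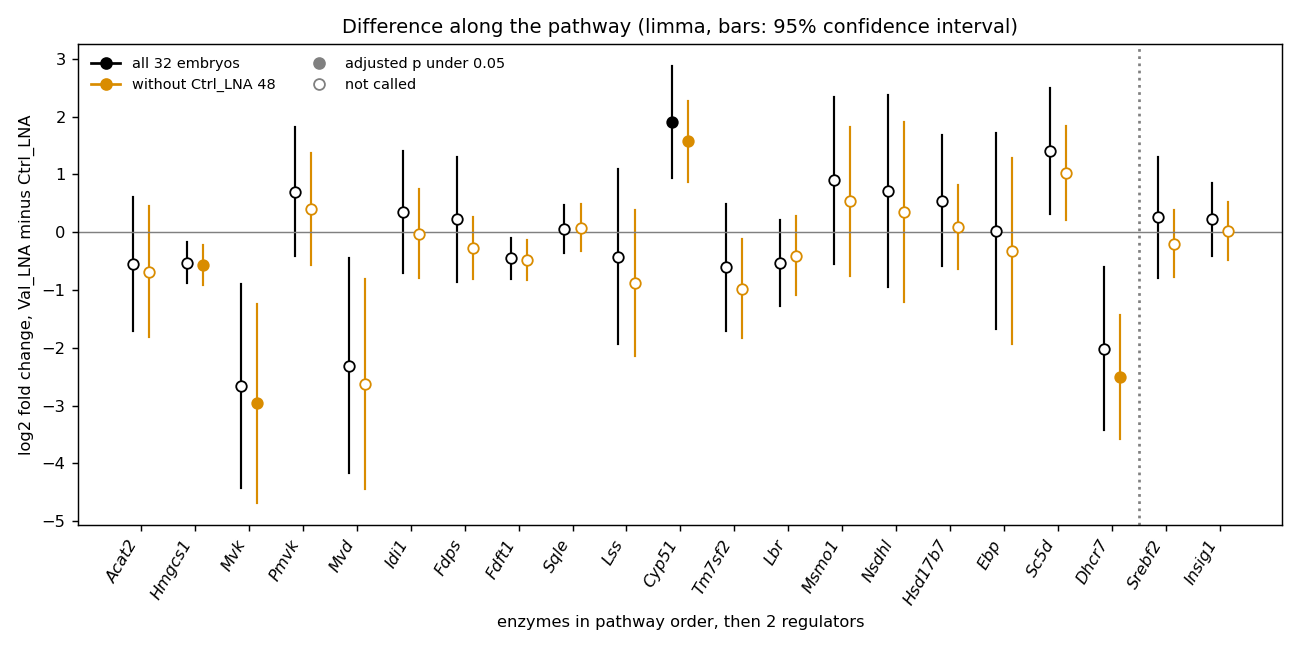
Log2 fold change (Val_LNA minus Ctrl_LNA) of 19 enzymes of the pathway list in pathway order, then Srebf2 and Insig1, in limma with all 32 embryos (black) and without Ctrl_LNA 48 (orange); bars are 95% confidence intervals and filled points have an adjusted p under 0.05. Cyp51 is the filled point above 0 in both fits, and Hmgcs1, Mvk and Dhcr7 are filled below 0 only without Ctrl_LNA 48.

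The sign of the difference held for 5 members in all 15 alternatives that kept the group structure or a run of it. Cyp51 lay between 1.38 and 2.16 and Dhcr7 between -2.96 and -1.42. Hmgcs1 lay between -0.97 and -0.10 and Fdft1 between -0.90 and -0.39, and Mvk lay between -3.74 and -1.48 in the 14 it could enter. Centring on the median gene is among these and turned none of the 5. Sqle, Srebf2 and Insig1 turned sign between them and carry no direction here.

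**Figure D3:**
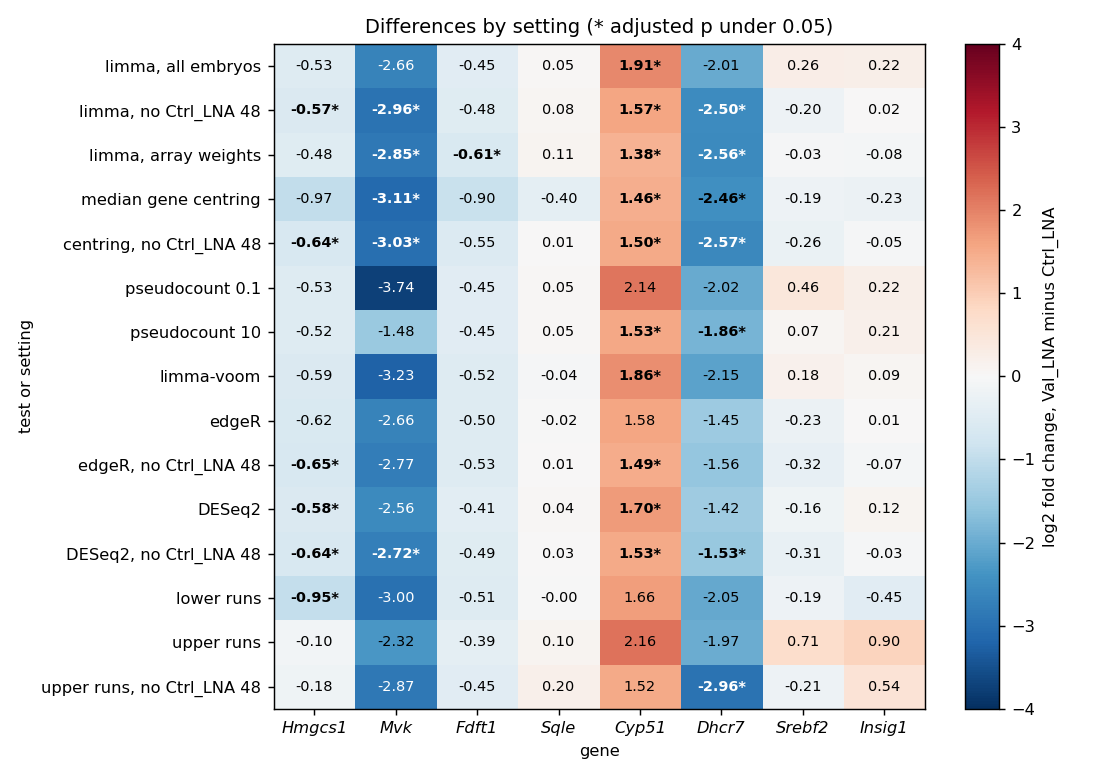
Log2 fold change (Val_LNA minus Ctrl_LNA, number and colour) of the 8 genes, in columns, under 15 tests or settings, in rows, with an asterisk where the adjusted p was under 0.05. The Cyp51 column is above 0 throughout, and the Hmgcs1, Mvk, Fdft1 and Dhcr7 columns are below 0 throughout, with asterisks in some rows only.

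The labels number the Val_LNA libraries 1 to 8 and 13 to 20, and the Ctrl_LNA libraries 31 to 38 and 43 to 50. These runs are not named as batches. Each run holds embryos of a single group, so an effect of the run cannot be told apart from that of the injection. Runs of the 2 groups were paired by order alone. The comparison was repeated within the lower and within the upper numbers, with 8 embryos a group. Cyp51 had means of 196 ± 115 in Val_LNA against 59.2 ± 32.8 in Ctrl_LNA in the lower runs (SD, n = 8 each). In the upper runs without Ctrl_LNA 48 they were 122 ± 85.5 (SD, n = 8) and 43.8 ± 40.5 (SD, n = 7). The log2 fold changes of Cyp51, 1.66 and 1.52, were alike in the 2 pairs of runs, and with fewer embryos neither passed (limma adjusted p = 0.0855 and 0.207).

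Hmgcs1 passed in the lower runs and not in the upper ones. In the lower runs the means were 1281 ± 224 and 2507 ± 637 (SD, n = 8 each), with no overlap, since the highest Val_LNA embryo (1661) lay under the lowest control (1832). Its log2 fold change was -0.95 there (limma adjusted p = 0.0124), where limma called 0 of the 8 members higher and 1 lower against 0.623% and 0.533% of genes. In the upper runs it was -0.10 (limma adjusted p = 0.88) with Ctrl_LNA 48, where 0 members were called against 0.0129% of genes higher and 0.212% lower, and -0.18 without it (limma adjusted p = 0.794). The test of the difference between the runs, an interaction term, gave 0.85 (SE 0.32, unadjusted p = 0.0121, limma adjusted p = 0.817), which did not pass.

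Dhcr7 was called lower in the upper runs without Ctrl_LNA 48 (-2.96, limma adjusted p = 0.0492), where limma called 0 members higher and 1 lower against 0.045% and 0.797% of genes. In the lower runs, which hold the 4 Val_LNA embryos with control-like counts, it was -2.05 (limma adjusted p = 0.251). Mvk gave -3.00 in the lower runs and -2.87 in the upper runs without Ctrl_LNA 48, with limma adjusted p of 0.351 and 0.256. Insig1 went from -0.45 in the lower runs to 0.54 in the upper runs without Ctrl_LNA 48, and its interaction with all embryos was 1.35 (SE 0.57, limma adjusted p = 0.817). In limma 0 of the 8 interactions passed, and 2 had an unadjusted p under 0.05, Hmgcs1 and Insig1, against 5.19% of all genes. EdgeR's interaction test also called 0, with 2 at an unadjusted p under 0.05 against 4.4% of all genes.

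Between embryos of a group the members showed little common movement. Over the 28 pairs of members the median Pearson r of log2(normalised count + 1) was 0.01 in the 16 Val_LNA embryos, with a range of -0.30 to 0.61. In the 16 Ctrl_LNA embryos it was 0.34 (-0.22 to 0.90), and 0.08 (-0.54 to 0.68) in the 15 without Ctrl_LNA 48, so the higher median rested on that embryo. Of the 56 relations computed, 0 passed after adjustment with or without that embryo, and 2 pairs in Val_LNA against 7 in Ctrl_LNA had an unadjusted permutation p of r under 0.05 with all embryos. Without Ctrl_LNA 48 the control pairs under 0.05 numbered 3.

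The highest coefficient in Val_LNA was between Mvk and Insig1, with r = 0.61 (permutation p = 0.0107, adjusted 0.274) and rho = 0.64 (permutation p = 0.00895, adjusted 0.251), and r = 0.71 without the 2 embryos farthest from the median of Mvk. In the 15 controls without embryo 48 it was between Hmgcs1 and Insig1, with r = 0.68 (permutation p = 0.00616, adjusted 0.193) and rho = 0.68 (permutation p = 0.00727, adjusted 0.194), and r = 0.75 without the 2 farthest. Sqle and Insig1 followed with r = 0.67 (permutation p = 0.00689, adjusted 0.193) and rho = 0.63 (permutation p = 0.0139, adjusted 0.194), and r = 0.51 without the 2 farthest. Cyp51 and Dhcr7, which differed between groups in opposite directions without Ctrl_LNA 48, had r = -0.26 in Val_LNA embryos (permutation p = 0.336) and -0.18 in these controls (permutation p = 0.525), with rho of -0.16 (permutation p = 0.548) and -0.21 (permutation p = 0.445), all 4 with an adjusted p of 0.649 or more.

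**Figure D4:**
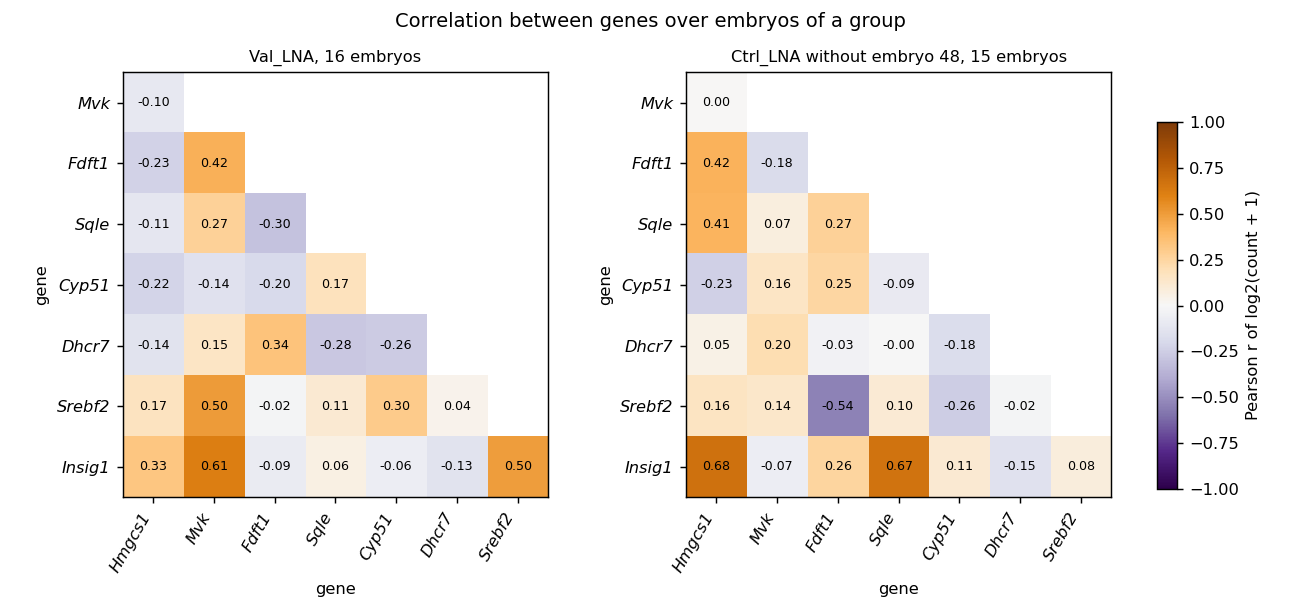
Pearson r of log2(normalised count + 1) for each pair of the 8 genes (axes), over the 16 Val_LNA embryos (left) and the 15 Ctrl_LNA embryos other than Ctrl_LNA 48 (right). Values run from -0.30 to 0.61 on the left and from -0.54 to 0.68 on the right, and none passed after adjustment over the 56 relations.

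The genes whose counts followed a member most closely were sought among 8214 genes with a mean of at least 50, over 31 embryos and around the group means. For Cyp51 these were Ankrd37 (r = 0.76), a gene known to be induced by hypoxia, Fam53b (r = 0.56) and Zbtb8os (r = 0.55). Ankrd37 was itself called higher in Val_LNA embryos, with means of 136 ± 88.7 and 42.2 ± 29.2 (SD, n = 16 each) and a log2 fold change of 1.84 (SE 0.49, limma adjusted p = 0.036). For Hmgcs1 they were Usp28 (r = 0.79), a deubiquitinase, Pias1 (r = 0.78), a SUMO ligase, and Fam160a1 (r = 0.75). For Srebf2 they were Anapc2 (r = 0.72), a subunit of the anaphase-promoting complex, Akt2 (r = 0.66), a kinase of insulin signalling, and Pum2 (r = 0.63), an RNA-binding repressor. None of these 9 is a gene of the pathway list, the last 8 named were not called, and the coefficients are descriptions of the closest of many.

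Around the pathway, the regulators of sterol sensing showed no call. All 14 listed genes were tested and 0 passed with or without Ctrl_LNA 48. Their medians were 0.79 and 0.31 log2 units, against 0.26 and 0.07 over all tested genes. At an unadjusted p under 0.05, 3 were higher with all embryos and 1 without Ctrl_LNA 48, against 8.88% and 8.28% of all genes. Rnf145, a ubiquitin ligase that acts on SCAP, had the smallest p at 1.63 (SE 0.60, limma adjusted p = 0.175). Scap, which escorts SREBP2, followed at 1.15 (SE 0.56, limma adjusted p = 0.333), and at 0.66 without Ctrl_LNA 48. Of the 16 genes of sterol uptake and transport 13 were tested and 0 passed in limma, 0 had an unadjusted p under 0.05, and the median was 0.67, or 0.37 without Ctrl_LNA 48. Npc1, the lysosomal exporter of cholesterol, stood at 1.08 (limma adjusted p = 0.34) and Lrp1, a lipoprotein receptor, at 1.02 (limma adjusted p = 0.346), or 0.57 without Ctrl_LNA 48. At an unadjusted p under 0.05, 1 gene of this list was higher without that embryo, against 8.28% of all genes.

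Among genes of storage, efflux and oxysterol formation, 1 of 8 tested was called lower and 0 higher with all embryos. Of all tested genes 1.31% were called lower and 0.881% higher. The gene of the list called lower was Nr1h2, which encodes the sterol-sensing nuclear receptor LXR-beta. Control embryos ran from 188.66 to 636.35 normalised counts with a median of 382.9, and Val_LNA embryos from 0 to 227.65 with a median of 39.9. The 2 ranges overlapped only between 188.66 and 227.65. Its log2 fold change was -3.32 (SE 0.47, limma adjusted p = 2.9e-05), and again -3.32 when Ctrl_LNA 48 was left out (limma adjusted p = 2.13e-05), and it passed in the lower (-3.26, limma adjusted p = 0.0488) and the upper runs (-3.37, limma adjusted p = 0.00843). Without Ctrl_LNA 48, Apoe, the apolipoprotein that carries cholesterol out of cells, was also called lower (-1.82, SE 0.45, limma adjusted p = 0.0127), from 538 ± 698 in these controls (SD, n = 15) to 127 ± 110 in Val_LNA (SD, n = 16). The median of the list was -0.61 with all embryos and -0.96 without Ctrl_LNA 48, against 0.26 and 0.07 over all tested genes.

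The branches that leave the pathway at its isoprenoid stage held calls in both directions. Of 12 genes, all tested, 1 was called higher and 1 lower with all embryos, against 0.881% and 1.31% of all genes. The list had a median of 0.29, against 0.26 over all tested genes. Icmt, which methylates prenylated proteins, rose from 37.3 ± 50.5 to 107 ± 57.4 normalised counts (SD, n = 16 each; log2 fold change 2.91, SE 0.70, limma adjusted p = 0.0152). It passed without Ctrl_LNA 48 (2.67, limma adjusted p = 0.0147) and missed the threshold in edgeR (1.43, adjusted p = 0.427) and DESeq2 (1.52, adjusted p = 0.17). Dhdds, a subunit of the enzyme that makes dolichol, fell, with medians of 332.9 in Ctrl_LNA and 142.5 in Val_LNA (log2 fold change -1.25, SE 0.29, limma adjusted p = 0.0106). Without Ctrl_LNA 48 it gave -1.07 (limma adjusted p = 0.00124), and Nus1, its partner subunit, was called lower as well (-1.56, limma adjusted p = 0.00335). Fntb, the beta subunit of farnesyltransferase, was called higher there (1.01, limma adjusted p = 0.0251).

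Fatty acid synthesis, the branch of lipid synthesis driven mainly by SREBP1, had 12 of 14 genes tested and 0 called by limma, at a median of -0.14, or -0.31 without Ctrl_LNA 48. Over all tested genes the medians were 0.26 and 0.07. At an unadjusted p under 0.05, 1 gene of the list was higher and 2 lower with all embryos, against 8.88% and 5.85% of all genes. The 2 smallest p belonged to Elovl6, a fatty acid elongase, at -2.68 (SE 0.84, limma adjusted p = 0.0909) and Fads1, a desaturase, at -2.07 (SE 0.85, limma adjusted p = 0.242). DESeq2 called Elovl6 lower with all embryos (-2.10, adjusted p = 0.0384) and not without Ctrl_LNA 48 (-2.16, adjusted p = 0.0617).

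**Figure D5:**
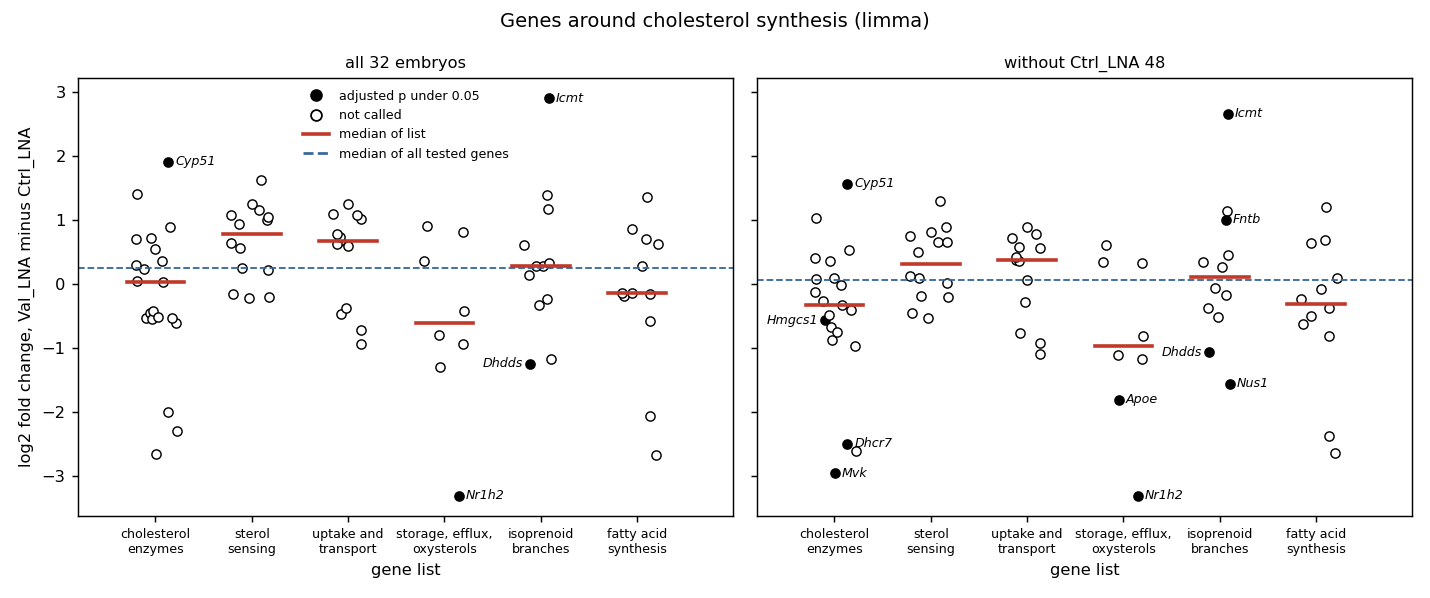
Log2 fold change (Val_LNA minus Ctrl_LNA) of every tested gene in 6 lists, in limma with all 32 embryos (left) and without Ctrl_LNA 48 (right); filled points have an adjusted p under 0.05, red bars are list medians and the dashed line is the median of all tested genes (0.26 and 0.07). Cyp51, Icmt, Dhdds and Nr1h2 are named in both panels.

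Markers of other cells and of stage were read beside these values. Of 15 markers of cumulus and granulosa cells, 12 had a median of 0 in each group. The summed level ran from 64.8 to 1100 in Val_LNA against from 176 to 1080 in Ctrl_LNA. Most of it was Amhr2, an anti-Mullerian hormone receptor, at 545 ± 284 and 519 ± 200 (SD, n = 16 each). Tnfaip6, a matrix gene of the cumulus, had means of 20.0 and 5.55 (log2 fold change 2.03, limma adjusted p = 0.107), and Star, a cholesterol carrier of steroid-making cells, 10.1 and 15.4 (-0.88, limma adjusted p = 0.572). The summed level of 14 RNAs stored in the oocyte ran from 7870 to 38500 in Val_LNA against from 7070 to 25800 in Ctrl_LNA without embryo 48. Of its 13 tested genes 0 were called by limma. At an unadjusted p under 0.05, 1 was higher with all embryos and 3 without Ctrl_LNA 48, against 8.88% and 8.28% of all genes. The median was 0.91 with all embryos and 0.34 without Ctrl_LNA 48, against 0.26 and 0.07 over all tested genes. The smallest p with all embryos belonged to Oosp1 (1.11, limma adjusted p = 0.292) and Zp2 (1.04, limma adjusted p = 0.363), at 0.63 and 0.59 without Ctrl_LNA 48.

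Of 15 tested genes of the 2-cell stage, 0 were called by limma. All 15 had a positive log2 fold change with and without Ctrl_LNA 48, against 64.3% and 54.2% of all tested genes, and the median was 0.95 and 0.66. In both fits 3 were higher at an unadjusted p under 0.05, against 8.88% and 8.28% of all genes. Zfp352, a zinc finger gene of this stage, stood at 0.62 (limma adjusted p = 0.143) and Usp17lc, a deubiquitinase, at 1.32 (limma adjusted p = 0.164). DESeq2 with all embryos called 4 of the 15 higher, all of them Zscan4 genes, whose near-identical copies can share reads, against 1.32% of all genes. Without Ctrl_LNA 48 it called 2, Zscan4c and Zscan4e, against 1.71%. The part of these stage genes in the differences of Cyp51, Dhcr7, Mvk and Hmgcs1 was not tested.

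Some reads of 3 members could belong to another gene, since the protocol does not mark the strand. Fdft1 shares 774 exonic bases (18.3% of its own) with Ctsb, a cathepsin on the opposite strand, whose means were 1440 ± 637 in Val_LNA against 2150 ± 681 in Ctrl_LNA (SD, n = 16 each; log2 fold change -0.74, limma adjusted p = 0.214). Hmgcs1 shares 557 exonic bases (12.1%) with the antisense transcript Gm48342, at 283 ± 87.2 and 418 ± 233 (-0.17, limma adjusted p = 0.87). Without Ctrl_LNA 48 Gm48342 gave -0.59 (SE 0.21, limma adjusted p = 0.118), beside -0.57 for Hmgcs1 in that fit, and edgeR with all embryos gave it -0.61 (adjusted p = 0.477). The part of shared reads in either value was not tested. Cyp51 shares 166 bases (3.76%) with Akap9, at 242 ± 144 and 179 ± 78.2 (0.43, limma adjusted p = 0.749), and Akap9 turned to -0.0370 without Ctrl_LNA 48 (limma adjusted p = 0.976). A copy of Fdft1, Gm6781, is 97.4% identical over 1249 bases and had means of 2.78 and 3.51. The rule for reads in shared bases is not given in the sources used here.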

How the data were processed

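Single-embryo mRNA sequencing used template switching, 20 PCR cycles and tagmentation, per the labels' protocols, with no molecular identifiers and no strand information. The submitters' processing notes list mm10 and, without versions or roles, Bowtie2, STAR, SAMtools and DESeq2. Which annotation was counted was not given in the sources used here. Each deposited value is a signal per gene and embryo, a gene count that the authors scaled by a DESeq size factor, per the file headers. Multiplied by the deposited size factors, 1095136 of 1095136 values (100%) gave whole reads within rounding, at most 0.0086 from a whole number. EdgeR on these reads called 29 genes higher and 168 lower. Gene coordinates and lengths are from GENCODE M21, which matched 34179 of 34223 identifiers (99.9%).

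The test was limma 3.58.1 in R 4.3.3, trend and robust options set, on log2(value + 1) of the 15559 genes reaching 10 in 8 or more embryos. Genes under 0.05 after Benjamini-Hochberg adjustment over all of them are named as called. A log2 fold change is on that log2(value + 1) scale, which understates changes of low genes. It can exceed the log2 ratio of means where embryos are near 0. Alternatives were edgeR 4.0.16, DESeq2 1.42.0, limma-voom, pseudocounts of 0.1 and 10, other filters, median centring, array weights, runs of library numbers, and leaving out embryos. Model fits were tested on simulated data. Correlations used two-sided permutation tests with 100000 resamples (scipy 1.17.1), adjusted over 56 relations. Chi-square per gene was at least 23.1 in each of 240 within-group pairs of libraries, so no library looked deposited more than once.

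Named were the members, the pathway list (2 of its genes are counted but their values are not reported here), the called genes of each other list (otherwise the 2 with the smallest p), and the 3 genes most correlated with Cyp51, Hmgcs1 and Srebf2. The members and lists were chosen with earlier results of these data known.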

Additional observations from a re-analysis of the deposited data

How the results depend on the processing

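Members called higher numbered 1 (Cyp51) except for 0 in edgeR, with a pseudocount of 0.1, in the lower runs, in the upper runs and in the upper runs without Ctrl_LNA 48, and the pathway list gave the same counts, 1 and 0. Members called lower, 0 with all embryos, numbered 1 in DESeq2, with a pseudocount of 10, in edgeR without Ctrl_LNA 48, in the lower runs and in the upper runs without Ctrl_LNA 48. They numbered 2 after median centring, and 3 with array weights (Dhcr7, Mvk and Fdft1) and, without Ctrl_LNA 48, in limma, DESeq2 and median centring. The pathway list gave the same counts except 4 with array weights, which added Mvd. Leaving out each embryo in turn gave 1 called higher each time and 0 to 3 lower, for the members and for the pathway list, and Ctrl_LNA 48 was the embryo that gave 3. Of all genes, array weights called 2.27% higher and 3.62% lower, median centring 0.392% and 1.93% (1.2% and 2.78% without Ctrl_LNA 48), a pseudocount of 0.1 0.527% and 1.08%, and one of 10 1.3% and 1.8%. The cause of these moves was not tested. Correlated pairs numbered 0, and 2 by r after median centring, Hmgcs1 and Insig1 (r = 0.84) and Sqle and Insig1 (r = 0.85). Both were in Ctrl_LNA with Ctrl_LNA 48 included, and neither passed by rho (permutation test, adjusted p = 0.405 for both). Their r was 0.56 and 0.58 without the 2 embryos farthest from the median. The log2 fold change of Sqle reversed to -0.0215 in edgeR, -0.0355 in limma-voom, -0.398 after centring and -0.00024 in the lower runs, and ran from -0.0268 (without Ctrl_LNA 44) to 0.11 when each embryo was left out. Srebf2 reversed to -0.23 in edgeR, -0.16 in DESeq2, -0.19 after centring, -0.0346 with array weights, -0.20 in the lower runs and -0.21 in the upper runs without Ctrl_LNA 48. Without Ctrl_LNA 48 in all runs it was -0.20 in limma, -0.32 in edgeR, -0.31 in DESeq2 and -0.26 after centring, and leaving out each embryo gave -0.195 to 0.412. Insig1 reversed to -0.23 after centring, -0.0772 with array weights and -0.45 in the lower runs, and without Ctrl_LNA 48 to -0.0732 in edgeR, -0.0317 in DESeq2 and -0.0501 after centring. No paired analysis was possible because the groups share no replicate numbers. The value of Mvk rests on few reads in Val_LNA, 169 in all, with a median of 1.09 normalised counts. Mvk did not enter the filter of 50 in 16 embryos.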
